A study of Mus musculus with 27 samples.

Results

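Of 19468 H3K4me3 peaks in wild-type (WT) mouse embryonic stem cells (ESC), 2695 (13.8%) were also marked in Utx-knockout (Utx-KO) ESC but met no H3K4me3 peak of any of 4 fibroblast lists. The fibroblast lists were those of Utx-KO and WT mouse embryonic fibroblasts (MEF), each with and without doxycycline (dox). A shared base was enough for a peak to count as met. These 2695 regions are called late regions here, a name for ESC marks that had no called peak in fibroblasts with dox. No time course was measured. They made up 56.6% of the 4763 ESC regions that were absent from both untreated fibroblast lists. They were selected on called H3K4me3 peaks of ESC and fibroblasts, so their H3K4me3 values in those 6 lists are a description. UTX, H3K27me3 and the iPS clones were not part of the choice and are what the results are about.

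H3K4me3 is the histone mark of active and poised promoters, and broad H3K4me3 domains are known from genes that define a cell's identity. H3K27me3 is laid down by Polycomb repressive complex 2 and marks silenced or poised developmental genes. UTX (Kdm6a), encoded on the X chromosome, removes methyl groups from H3K27 and also belongs to the MLL3 and MLL4 methyltransferase complexes, which act at enhancers. When fibroblasts are reprogrammed with OSKM (Oct4, Sox2, Klf4 and c-Myc), some promoters of the pluripotent state gain H3K4me3 early and others only once cells approach pluripotency.

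The series mapped H3K4me3, H3K27me3 and UTX by chromatin immunoprecipitation and sequencing, and asked how loss of the demethylase UTX affects reprogramming. The groups were 2 aberrant iPS clones from Utx-KO MEF, which the labels describe as improperly reprogrammed, Utx-KO (Utx-/Y) and WT (Utx+/Y) V6.5 ESC grown in N2B27 2i/LIF, and Utx-KO and WT V19-OSKM MEF expanded in 2i/LIF with dox or without it. All fibroblasts carried the OSKM cassette that dox switches on. The sources used here do not give the length of dox treatment, the number of animals behind the MEF or the number of ESC lines. By these genotypes the cells were male, and males also carry Uty, a Y-linked paralog of Utx.

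The data were 19 peak lists, 8 for H3K4me3, 8 for H3K27me3 and 3 for UTX, each from 1 library. H3K4me3 lists held 16157 to 28232 peaks, H3K27me3 lists 135 to 36231 and UTX lists 372 to 5076. Read depth was unknown, so the absence of a peak means that none was called. UTX was mapped in WT MEF, WT MEF with dox and WT ESC. No UTX list of Utx-KO cells was among the files used, so antibody background was not measured, and the Utx-KO labels could not be checked from peak lists that name no genes. The labelled cell types could not be checked against marker genes for the same reason. Only the iPS state had more than 1 library per mark, so no difference between states was tested. Intervals are exact (Clopper-Pearson) 95% binomial intervals for shares and Newcombe intervals for differences of shares. They cover counting error over regions only, and neighbouring regions are not independent.

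Late regions were narrow and mostly weak in WT ESC, with a small tail of very broad and strong domains. The median width was 1614 bp (interval 1586 to 1639; quartiles 1268 and 2112 bp) and the widest spanned 18293 bp. Of the 2695, 272 were below 1000 bp, 1632 had 1000 to below 2000 bp, 679 had 2000 to below 4000 bp and 112 (4.16%) had 4000 bp or more. The authors' peak score, which rises with the statistical strength of a peak and starts at 50 in these lists, had a median of 135 (quartiles 80.9 and 260). It reached 100 in 64.7% of them and 3100, where scores pile up in these lists, in 17.

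3 other sets of ESC regions, all marked in Utx-KO ESC as well, serve as comparison. The first holds 797 regions that were absent from both untreated fibroblast lists and gained H3K4me3 with dox in WT cells only. The second holds 1155 that gained it with dox in both genotypes. The third holds 10978 that were marked in all 4 fibroblast lists. Median widths were 1614 bp in late regions, 1629 bp in regions gained in WT cells only, 1754 bp in those gained in both genotypes and 2619 bp in those marked in all 4 lists. Median scores ran in the same order, at 135, 144, 203 and 1083. Late regions were thus close in width and score to the regions gained in WT cells only, and well below the regions that fibroblasts already carried. Another set, of 1698 WT ESC regions with no peak in the fibroblast lists and none in Utx-KO ESC, is given where it bears on a comparison. Shares are also given by width or score class for the main comparisons.

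**Figure D1:**
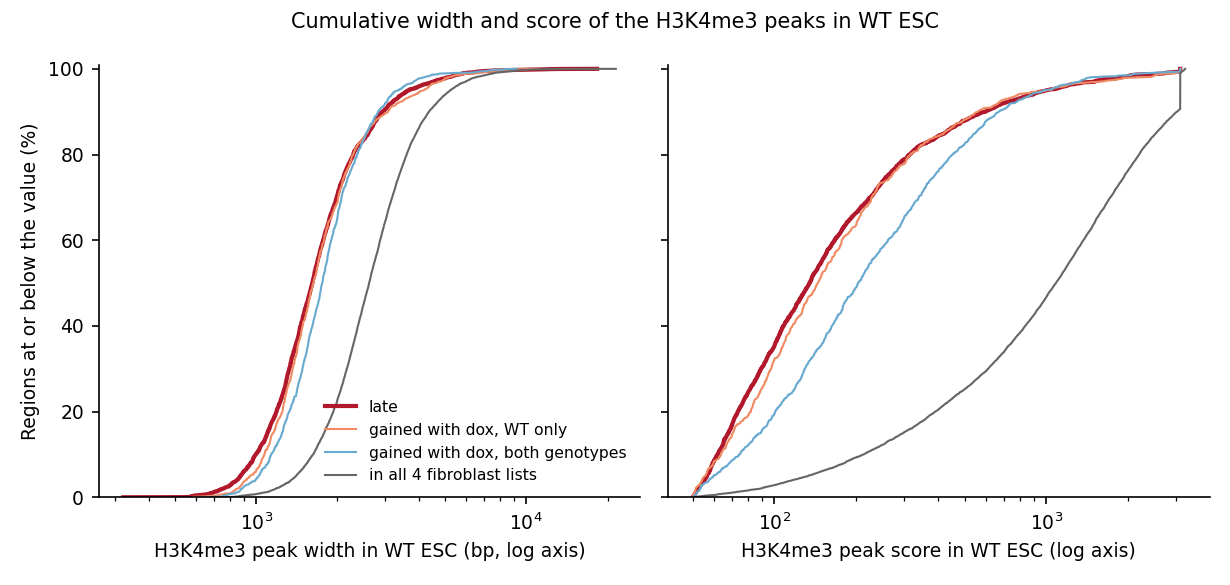
Cumulative share of regions (%) by width (bp, left) and score (right) of their H3K4me3 peak in WT ESC, on log axes, for late regions and 3 comparison sets. The curve of late regions lies close to that of regions gained with dox in WT cells only and far left of that of regions marked in all 4 fibroblast lists, with median widths of 1614 bp, 1629 bp and 2619 bp.

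In Utx-KO ESC the same regions had slightly narrower peaks. The partner peak in Utx-KO ESC had a median width of 1421 bp, against 1614 bp in WT ESC, and covered a median of 83.9% of the region. It was wider than the WT ESC peak in 36.2% of cases. Taking the Utx-KO ESC peaks as members in place of those of WT ESC gave 2805 of 20133 (13.9%), with a median width of 1390 bp and a median score of 166.

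Most late regions lay well away from any fibroblast H3K4me3 peak. The gap to the nearest one had a median of 15025 bp (quartiles 5497 and 43076 bp) and ranged between 1 and 2140657 bp. 148 (5.49%) lay within 1000 bp and 567 (21.0%) were over 50000 bp away. A peak within 2500 bp was found most often in the dox lists, for 251 late regions in the Utx-KO and 299 in the WT one, against 141 in untreated Utx-KO MEF and 144 in untreated WT MEF. The dox lists also covered more of the genome, 52.8 Mb in Utx-KO and 51.98 Mb in WT cells, against 22.32 and 23.55 Mb without dox. The part of this coverage in the counts was not tested, and other regions were not counted in this way. Just inside the rule were the regions on chromosome 11 from 106875425 to 106876861 (mm9, score 85.8, gap 1 bp) and chromosome 7 from 30236335 to 30239309 (score 142, gap 21 bp). Just outside it were chromosome 8 from 87227437 to 87228870 (score 180), which met a fibroblast peak by 9 bp, and chromosome 8 from 86191176 to 86192839 (score 260), which met one by 22 bp. 20 late regions lay within 100 bp of a fibroblast peak, and 10 ESC regions met fibroblast peaks by at most 100 bp in all.

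17 late regions shared the score of 3100 and are ordered here by width. The widest of them, which was also the widest of all late regions, spanned 18293 bp on chromosome 12 from 87807410 to 87825702 and lay 32584 bp from the nearest fibroblast peak. In iPS clone 2 it was a single peak of 18564 bp, while in clone 1 it was broken into 7 peaks of which the widest had 4079 bp. Utx-KO ESC covered it with 2 peaks, the wider of 15066 bp. It headed a group of 6 late regions within 42263 bp, all of them marked in clone 2 and 3 in clone 1. The second widest, 13178 bp on chromosome 8 from 44380534 to 44393711, was 1518678 bp from the nearest fibroblast peak and was covered in clone 1 by 6 peaks, in clone 2 by 4 and in Utx-KO ESC by 1. Next came chromosome 14 from 22299249 to 22311370 (12122 bp) and chromosome 6 from 122655745 to 122666891 (11147 bp), both at score 3100. None of the 10 widest at score 3100 outside chromosome 18 and of the 5 widest overall had an H3K27me3 peak in any list, and each had H3K4me3 in both clones.

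UTX was found at 302 late regions in WT ESC, or 11.2% (interval 10.0 to 12.5). Over all 17018 WT ESC regions that were also marked in Utx-KO ESC, the share was 5.97%. It was 10.4% (83) in regions gained in WT cells only, 3.64% (42) in those gained in both genotypes and 4.78% (525) in those marked in all 4 fibroblast lists. Late regions thus exceeded the regions gained in both genotypes by 7.57 points (5.89 to 9.13) and those marked in all 4 lists by 6.42 points (5.21 to 7.73). From the regions gained in WT cells only they differed by 0.792 points, with an interval of -1.79 to 3.09 that includes 0. The 1698 WT ESC regions with neither a fibroblast peak nor one in Utx-KO ESC had UTX in 11.9% (interval 10.4 to 13.5), a share like that of late regions.

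**Figure D2:**
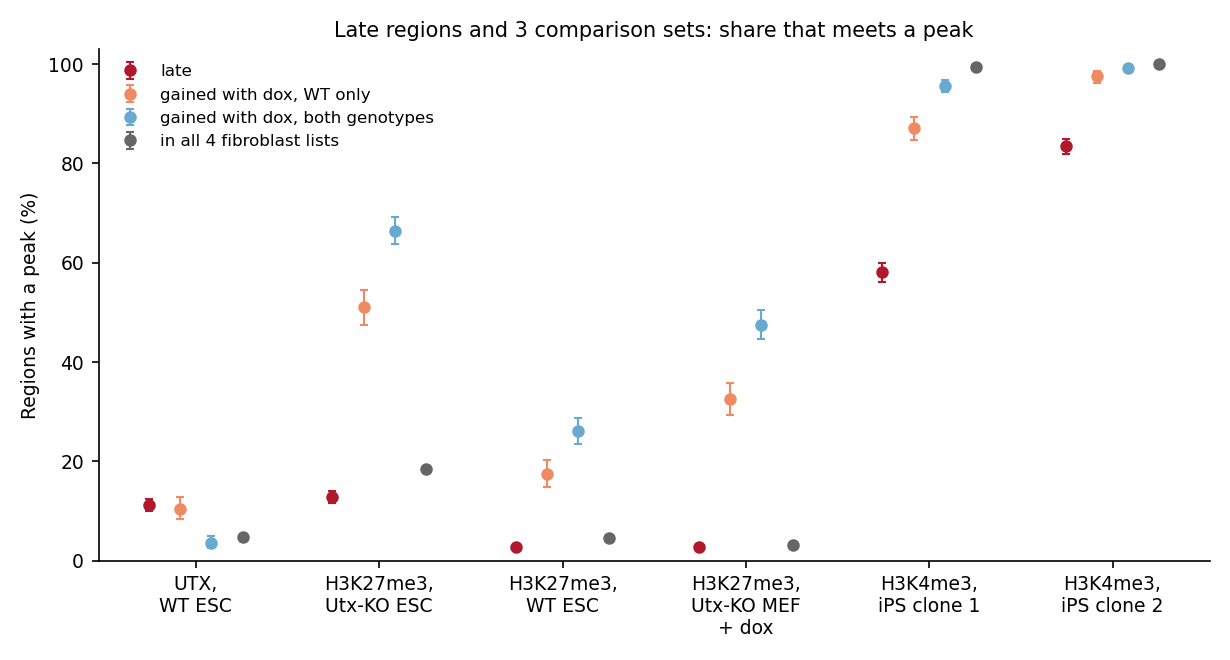
Share of regions (%) that met a peak in each named list, for late regions and 3 comparison sets, with exact 95% binomial intervals over regions. Late regions had UTX in 11.2%, H3K27me3 in Utx-KO ESC in 12.8%, and H3K4me3 in 58.1% and 83.5% in iPS clones 1 and 2, the lowest share of the 4 sets in either clone.

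The share with UTX grew with the width of the H3K4me3 region in every set. A shared base was enough, so a wider region can meet a peak more easily, and the shares are not corrected for width. In late regions it was 3.31% below 1000 bp, 6.99% at 1000 to below 2000 bp, 20.2% at 2000 to below 4000 bp and 37.5% (interval 28.5 to 47.2) at 4000 bp or more. Regions marked in all 4 fibroblast lists had 1.18%, 1.91%, 3.85% and 13.8% in the same classes, so the values of late regions were higher within each class, with overlapping intervals below 1000 bp. In the broadest class, regions gained in WT cells only (48.9%) and in both genotypes (42.3%) had intervals that overlap that of late regions. At 1000 to below 2000 bp the regions gained in both genotypes had 1.99% and at 2000 to below 4000 bp 4.53%, below the late regions of the same width. UTX also rose with the H3K4me3 score in late regions, with 5.57% below 100, 10.3% at 100 to below 200, 14.8% at 200 to below 500 and 23.5% at 500 to below 3100.

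**Figure D3:**
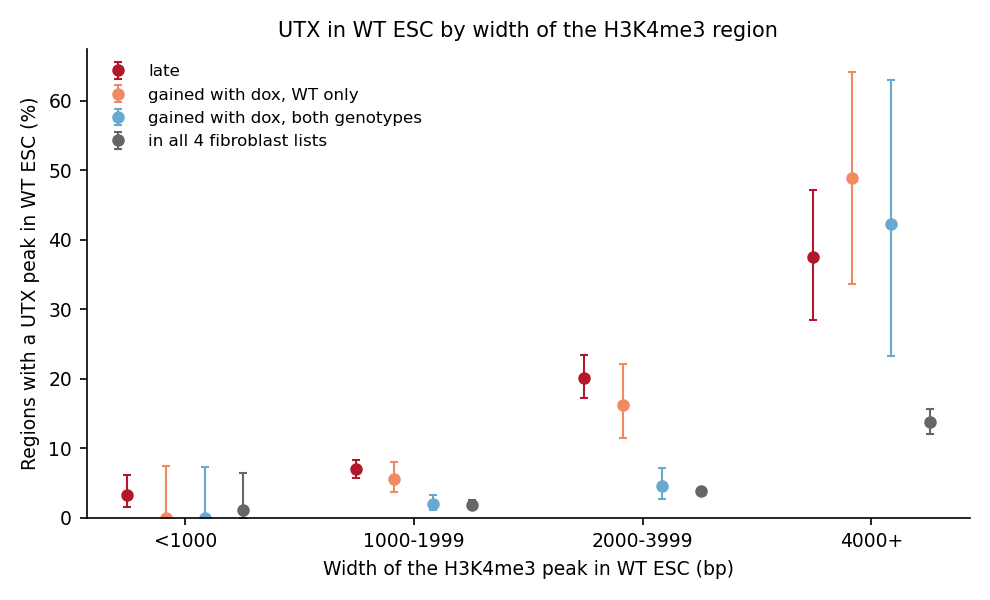
Share of regions (%) with a UTX peak in WT ESC, by width class of the H3K4me3 peak in WT ESC (bp), for late regions and 3 comparison sets, with exact 95% binomial intervals. In late regions it was 3.31%, 6.99%, 20.2% and 37.5% from the narrowest to the broadest class, above the regions marked in all 4 fibroblast lists in each class.

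UTX peaks at late regions had a higher median score than the whole list (73.8, quartiles 59.6 and 102), with overlapping quartile ranges. The 314 UTX peaks that met late regions were 6.19% of all 5076 UTX peaks in WT ESC and 23.7% of those that met any WT ESC H3K4me3 peak. Their median score was 94.0 (quartiles 65.1 and 138), against 75.7 at regions gained in both genotypes, 67.4 at those marked in all 4 lists and 72.7 for UTX peaks away from H3K4me3. At regions gained in WT cells only the median was 92.4. Of the UTX peaks at late regions, 45.5% scored 100 or more. With a score of at least 100 required in every list, the rule gave 1638 regions, which need not be among the 2695, and 6.04% of them had UTX.

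The position of UTX within late regions is given as a description, without a value for randomly placed peaks. A shared base was enough for a UTX peak to count, so its middle could lie outside the region. A UTX peak that met neighbouring late regions was counted at each, so the 314 peaks gave 318 values. The middles of UTX peaks lay a median of 836 bp (quartiles 500 and 1272 bp) from the middle of the region, at 75.5% of the distance between the middle and the edge. 25.2% lay within 500 bp of the middle and 74.8% had their own middle inside the region. The UTX peaks themselves were short, with a median of 744 bp. In regions marked in all 4 fibroblast lists, which are wider, the median distance was 896 bp, at 52.3% of the distance to the edge, and 90.6% had their middle inside. 287 late regions held 1 UTX peak and 15 held more, at most 3.

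**Figure D4:**
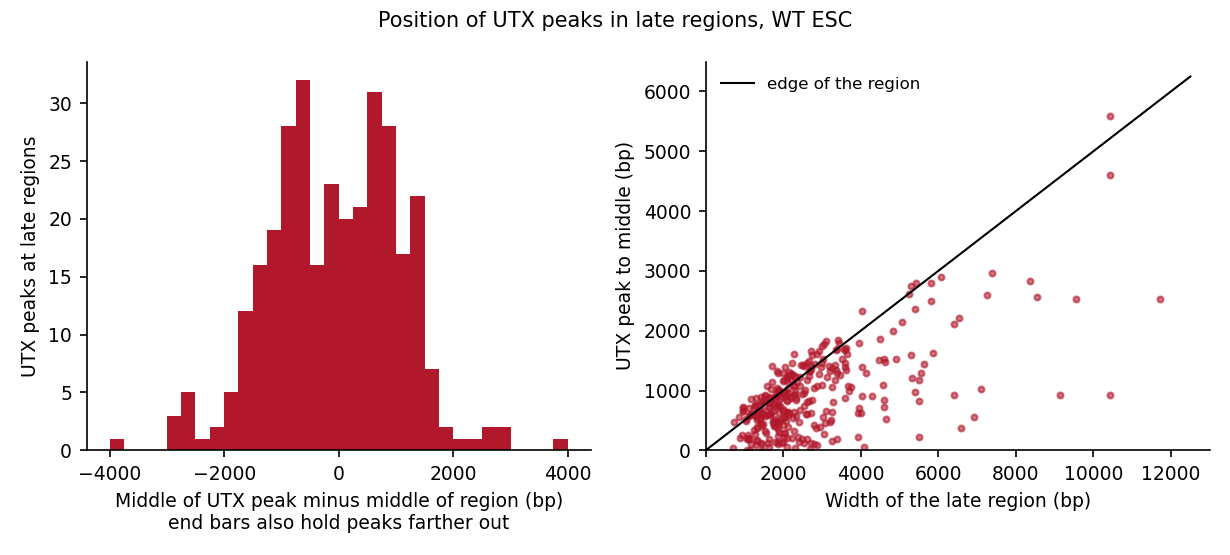
Position of UTX peaks in late regions in WT ESC, as the distance of the middle of each UTX peak from the middle of the region (bp): number of UTX peaks per 250 bp (left) and distance by width of the region (right). A UTX peak that met neighbouring late regions was counted at each, so 314 peaks gave 318 values. The histogram has 2 humps on either side of the middle, with a median distance of 836 bp, and the line marks the edge of the region.

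At the named region on chromosome 17 from 46944159 to 46949970 (5812 bp, score 3100) a UTX peak of score 208 lay just inside one end of the region. At chromosome 1 from 8925877 to 8931124 a UTX peak of score 61.7 crossed the end of the region, while at chromosome 11 from 33433655 to 33439198 one of score 108 lay inside. The region on chromosome 16 from 22403122 to 22413554 (10433 bp) held 3 UTX peaks, the most of any late region. It was 8726 bp wide in Utx-KO ESC, but its widest peak was 660 bp in iPS clone 1 and 4634 bp in clone 2, with H3K4me3 scores of 122 and 427, against 2849 in WT ESC.

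In fibroblasts UTX was almost absent from late regions. In WT MEF with dox, 13 late regions (0.482%, interval 0.257 to 0.824) met a UTX peak, against a background of 1.2% over all 17018 regions. Of these 13, 1 also had UTX in WT ESC. In WT MEF 0 of 2695 did, which allows a share of up to 0.111% by a limit of 3 counts. The exact interval reached 0.137% and thus includes the background of 0.123%. These lists were weak: 0.452% of the UTX peaks with dox and 14.3% of those without it scored 100 or more, against 26.6% in WT ESC. At a score of at least 100 no late region had UTX in WT MEF with dox. When the WT ESC list was shortened to as many top-scoring peaks as the list with dox holds, 9.05% of late regions met one.

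H3K27me3 was rare at late regions in all fibroblast lists. With dox it was found at 73 late regions in Utx-KO MEF (2.71%, background 9.16%) and at 9 in WT MEF (0.334%, background 0.823%). Without dox it was found at 56 in Utx-KO MEF (2.08%, background 5.12%) and at 43 in WT MEF (1.60%, background 5.11%). H3K27me3 in at least 1 of the 4 fibroblast lists was found at 3.82% of late regions (background 11.2%), and 3 regions had it in all 4. In the regions gained with dox, H3K27me3 in at least 1 of these lists was found at 38.6% (gained in WT cells only) and 53.5% (gained in both genotypes). The difference between late regions and these sets was -34.8 points (-38.3 to -31.4) and -49.7 points (-52.6 to -46.7). Regions marked in all 4 fibroblast lists had 4.25%, and the difference of -0.423 points had an interval of -1.19 to 0.448. Thus 95.7% of late regions (2579) had no peak in any of the 6 fibroblast lists of H3K27me3 and UTX, and, by the rule, none of H3K4me3. The background for those 6 lists was 87.5%, and regions marked in all 4 fibroblast H3K4me3 lists had 94.1%.

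Among the fibroblast lists, the difference to the gained regions was largest in Utx-KO MEF with dox. There H3K27me3 marked 2.71% of late regions, 32.5% of regions gained in WT cells only and 47.5% of those gained in both genotypes. With the same 938 top-scoring peaks of each H3K27me3 list, 1.08% of late regions were marked, and the difference to the regions gained in both genotypes was -19.4 points (-21.9 to -17.2), against -44.8 points with whole lists. Among the 73 late regions marked in Utx-KO MEF with dox, 39 were also marked in Utx-KO MEF and 55 in Utx-KO ESC. Neighbouring regions on chromosome 15, from 102760073 to 102766499 and from 102766529 to 102768565, had H3K27me3 in both untreated lists, at scores of 178 and 294 in Utx-KO MEF and 538 in WT MEF, as well as in the Utx-KO list with dox (222), and in neither ESC list. The strongest late region of this kind, chromosome 4 from 125166489 to 125170559 (score 1506), had H3K27me3 in Utx-KO MEF with dox alone, at 116.

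In ESC, H3K27me3 met 344 late regions in Utx-KO cells (12.8%, interval 11.5 to 14.1, background 24.9%) and 74 in WT cells (2.75%, interval 2.16 to 3.44, background 7.33%). Of the 74, 71 were marked in Utx-KO ESC as well, as were 1218 of the 1247 marked in WT ESC over all 17018 regions. 273 late regions (10.1%, background 17.7%) were marked in Utx-KO ESC only. The H3K27me3 lists differed greatly in length, with 36231 peaks over 79.8 Mb in Utx-KO ESC and 5679 over 6.20 Mb in WT ESC, and their depths were unknown. With the 938 top-scoring peaks of each, 1.34% of late regions were marked in Utx-KO ESC and 0.928% in WT ESC. The part of list length and depth in the difference was not tested.

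Late regions carried less H3K27me3 in ESC than each of the 3 comparison sets, but more than the 1698 regions of WT ESC alone, which had 9.60% in the Utx-KO ESC list. In Utx-KO ESC the shares were 12.8% in late regions, 51.1% in regions gained in WT cells only, 66.5% in those gained in both genotypes and 18.4% in those marked in all 4 lists. In WT ESC they were 2.75%, 17.4%, 26.1% and 4.66%. H3K27me3 in ESC lay at the narrower late regions: in Utx-KO ESC it was found at 12.9% below 1000 bp, 15.6% at 1000 to below 2000 bp, 7.66% at 2000 to below 4000 bp and 1.79% at 4000 bp or more. None of the 112 broadest was marked in WT ESC. Regions marked in all 4 lists had 35.3%, 35.6%, 15.0% and 5.91% in the same width classes. By H3K4me3 score, late regions had H3K27me3 in Utx-KO ESC at 16.7% below 100, 14.3% at 100 to below 200, 9.55% at 200 to below 500 and 3.22% at 500 to below 3100. In these score classes the values were 57.2%, 53.6%, 52.3% and 27.6% in regions gained in WT cells only, 64.9%, 69.8%, 72.0% and 54.6% in those gained in both genotypes, and 51.4%, 50.5%, 42.0% and 10.6% in those marked in all 4 lists. The gap to the regions marked in all 4 lists was thus wider within these classes than over all regions.

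At 5 named regions H3K27me3 was present in both ESC lists. On chromosome 4 from 41444161 to 41447096 its score was 1296 in Utx-KO ESC, against 54.9 in WT ESC. On chromosome 14 from 35631757 to 35634373, the only one of the 5 with H3K27me3 in fibroblasts, it was 834 in Utx-KO ESC and 127 in WT ESC. The other 3, on chromosomes 9, 11 and 14, had 246 to 371 in Utx-KO ESC and 52.8 to 63.4 in WT ESC. Scores of different lists also reflect their depth. All 5 had H3K4me3 in both iPS clones.

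UTX and H3K27me3 marked almost separate late regions in ESC. Only 4 (0.148%, background 0.341%) carried both UTX in WT ESC and H3K27me3 in an ESC list, 298 (11.1%, background 5.63%) had UTX alone and 343 (12.7%, background 24.7%) had H3K27me3 alone. H3K27me3 in Utx-KO ESC was found at 1.32% of the 302 regions with UTX, against 14.2% of the 2393 without, a difference of -12.9 points (-14.6 to -10.5). WT ESC H3K27me3 was found at 0 of the 302, which allows a share of up to 0.993% by a limit of 3 counts and 1.21% by the exact interval, and at 3.09% of the others. At 1000 to below 2000 bp the shares in Utx-KO ESC were 1.75% with UTX and 16.7% without, and at 2000 to below 4000 bp 1.46% and 9.23%. The separation was not confined to late regions. Among regions gained with dox in WT cells only, 8.43% of those with UTX and 56.0% of those without had H3K27me3 in Utx-KO ESC, and among regions marked in all 4 lists 5.71% and 19.0%. The other 2050 late regions (76.1%) had neither UTX nor H3K27me3 in ESC, against a background of 69.4% and 77.0% of regions marked in all 4 lists.

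H3K4me3 was present at 1565 late regions in iPS clone 1 (58.1%, interval 56.2 to 59.9) and at 2249 in clone 2 (83.5%, interval 82.0 to 84.8), with a mean of 70.8% ± 17.9 (SD, n = 2). Over all 17018 ESC regions the shares were 91.5% and 97.1%. Both clones marked 1527 late regions (56.7%), clone 2 alone 722 (26.8%) and clone 1 alone 38, so clone 1 marked nearly a subset of the regions of clone 2. Neither clone marked 408 (15.1%, background 2.59%). Among the 17018 regions, of which late regions were 15.8%, 441 lacked H3K4me3 in both clones, and these 408 were 92.5% of them. The 1698 regions of WT ESC alone lie outside the 17018, and neither clone marked 836 (49.2%) of them.

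Each of the 3 comparison sets was marked more often in either clone, while the 1698 regions of WT ESC alone were marked less often, at 21.3% in clone 1 and 48.8% in clone 2. By definition the comparison sets had peaks in more H3K4me3 lists than late regions, and the 1698 in fewer. The clones also came from Utx-KO MEF, whose H3K4me3 lists defined the sets. The part of this choice in the order of the shares was not tested. In clone 1 the shares were 58.1% in late regions, 87.2% in regions gained in WT cells only, 95.7% in those gained in both genotypes and 99.4% in those marked in all 4 lists. In clone 2 they were 83.5%, 97.6%, 99.3% and 99.97%, given here to more digits since 3 of 10978 were missing. The difference to regions gained in WT cells only, which had similar widths and scores, was -29.1 points (-32.0 to -26.0) in clone 1 and -14.2 points (-15.9 to -12.3) in clone 2. At scores below 100 neither clone marked 20.6% of late regions, 4.28% of regions gained in WT cells only, 2.67% of those gained in both genotypes and 0.320% of those marked in all 4 lists. At 200 to below 500 it was 11.6% of late regions and 0.513% of regions gained in WT cells only.

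The clones differed in their lists as well. Clone 1 had 23388 H3K4me3 peaks, of which 96.5% scored 100 or more, and clone 2 had 28232, of which 78.9% did. Shortened to as many top-scoring peaks as the WT ESC list, clone 1 marked 44.1% and clone 2 59.8% of late regions, and 37.1% were marked in neither.

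Presence in the clones rose with the score of the region in WT ESC. Clone 1 marked 45.8% of late regions with scores below 100, 55.9% at 100 to below 200, 66.3% at 200 to below 500 and 83.9% at 500 to below 3100. Clone 2 marked 77.6%, 83.8%, 86.5% and 93.9% in the same classes, and both clones marked all 17 at 3100 or more. By width, in the order of the 4 classes above, clone 1 marked 42.6%, 57.0%, 63.5% and 78.6%. Clone 2 marked 78.7%, 83.8%, 82.9% and 92.9%, with no rise between the middle classes.

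Where clone 1 had a peak, it was narrow. The peaks of clone 1 at late regions had a median width of 929 bp, against 1693 bp for the same regions in WT ESC, and covered a median of 58.5% of the region. In clone 2 the median was 1468 bp, against 1622 bp in WT ESC, with 84.6% covered. The median ratio to the width in WT ESC was 0.577 in clone 1 and 0.902 in clone 2, and 5.69% and 36.4% of the peaks were wider than in WT ESC. The ratio in clone 1 was higher in the other sets, at 0.724 in regions gained in WT cells only, 0.771 in those gained in both genotypes and 0.748 in those marked in all 4 lists. One of the named regions, chosen for score and width in WT ESC, was chromosome 13 from 98252035 to 98258864, with 2102 bp in clone 1, 4826 bp in clone 2, 6497 bp in Utx-KO ESC and 6830 bp in WT ESC.

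Some broad late regions had no H3K4me3 in either clone. The strongest of them, chromosome 3 from 135211163 to 135220708, was 9546 bp wide in WT ESC with a score of 1845, was covered in Utx-KO ESC by 2 peaks, the wider of 6460 bp, and held a UTX peak of score 66.8 in WT ESC. Chromosome 10 from 88144826 to 88148450 (score 824) also held UTX, with a score of 138. Chromosome 2 from 120336361 to 120341032 (score 904) and 2 regions of the X chromosome, from 104493445 to 104497086 (score 1264) and from 7625893 to 7631975 (score 894), had no peak in any of the 13 lists outside the rule.

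H3K27me3 was hardly seen at late regions in the iPS clones. It met 1 late region in clone 1 (0.0371%, background 0.0588%) and 3 in clone 2 (0.111%, background 0.118%). The H3K27me3 lists of the clones held only 135 and 737 peaks, so few regions of any kind could meet one. None of the 408 late regions without H3K4me3 in the clones met an H3K27me3 peak of a clone. The region in clone 1 was on chromosome 19 from 28229866 to 28230790, and the strongest in clone 2 on chromosome 8 from 83441463 to 83443456. All 4 of these regions had H3K4me3 in both clones.

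Late regions with UTX in WT ESC were marked less often in the Utx-KO clones than those without it. In clone 1, H3K4me3 was present at 142 of 302 regions with UTX (47.0%) and at 1423 of 2393 without (59.5%), a difference of -12.4 points (-18.3 to -6.48). In clone 2 it was present at 230 (76.2%) and 2019 (84.4%), a difference of -8.21 points (-13.5 to -3.51). The regions with UTX were wider (median 2188 bp with UTX and 1563 bp without) and stronger (median score 225 and 128), which in late regions as a whole went with more frequent marking. Within 1000 to below 2000 bp the difference was -21.7 points (-30.3 to -12.2) in clone 1 and -15.6 points (-24.8 to -7.67) in clone 2. At 2000 to below 4000 bp it was -18.3 points (-27.3 to -9.03) in clone 1, while in clone 2 it was -5.12 points with an interval of -13.2 to 1.75. At 4000 bp or more, where 42 regions had UTX and 70 did not, the differences were -3.81 and 3.81 points and both intervals include 0.

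The same split by score, added after seeing the data, gave the widest gap in the middle of the range. Only that class is given here, picked for its gap, so it does not stand for the other score classes. Those held 53 late regions with UTX below 100, 85 at 200 to below 500 and 73 at 500 to below 3100. At scores of 100 to below 200, clone 1 marked 27.9% of 86 regions with UTX and 59.1% of 753 without, a difference of -31.2 points (-40.3 to -20.3). Clone 2 marked 64.0% and 86.1% of them. Neither clone marked 32.6% with UTX and 13.4% without. When peaks had to share 50% of the shorter one in place of a single base, the difference over all widths was -5.56 points in clone 1 (-12.3 to 1.08) and -3.51 points in clone 2 (-9.31 to 1.36), and both intervals include 0.

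In clone 1 this pattern was also present in regions gained with dox in WT cells only. The split is not given here for clone 2, which marked 97.6% of those regions. There clone 1 marked 71.1% of 83 regions with UTX and 89.1% of 714 without, a difference of -17.99 points (-28.7 to -8.99). In regions gained in both genotypes the difference was -2.92 points (-14.8 to 1.95) and in those marked in all 4 lists -0.340 points (-1.61 to 0.230), sets in which clone 1 marked nearly all regions. Whether the differences of the sets themselves differ was not tested. Where a late region with UTX did have a peak in clone 1, the clone covered a median of 39.9% of it, against 59.8% without UTX. In clone 2 the coverage was 73.4% with UTX and 85.6% without. Coverage was not split by width, and the regions with UTX were wider. In Utx-KO ESC, where all late regions are marked by the rule, the coverage was 76.9% with UTX and 84.6% without.

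Late regions with H3K27me3 in Utx-KO ESC stood on the other side. Clone 1 marked 83.4% of these 344 and 54.4% of the 2351 without it, a difference of 29.1 points (24.3 to 33.2). Clone 2 marked 96.5% and 81.5%, a difference of 15.0 points (12.0 to 17.2). Within 1000 to below 2000 bp, which held 255 of the 344, the differences were 30.5 points (24.8 to 35.4) and 14.5 points (10.8 to 17.3). In this class they were thus close to those over all widths. Differences in the other width classes and in the comparison sets are not given here. The split is therefore not shown to be a trait of late regions. Neither clone marked 11 of the 344 (3.20%). Of the 74 late regions with H3K27me3 in WT ESC, clone 2 marked all and clone 1 marked 71, and of the 73 with H3K27me3 in Utx-KO MEF with dox, clone 1 marked 69 and clone 2 marked 71.

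**Figure D5:**
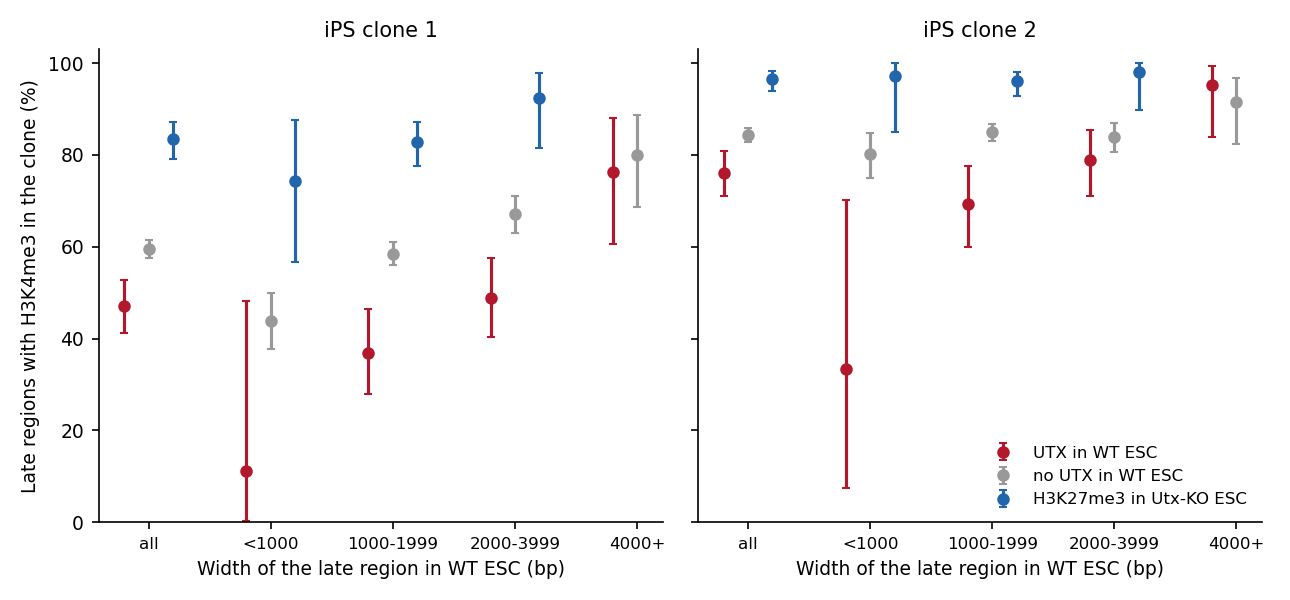
Share of late regions (%) with H3K4me3 in iPS clone 1 (left) and clone 2 (right), over all late regions and by width class in WT ESC (bp), for regions with UTX in WT ESC, without UTX, and with H3K27me3 in Utx-KO ESC, with exact 95% binomial intervals. Over all widths clone 1 marked 47.0% of regions with UTX, 59.5% without and 83.4% of those with H3K27me3; the class of 4000 bp or more held too few regions with H3K27me3 to plot.

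Seen from the clones, the 408 late regions in neither clone had UTX in 15.7% and H3K27me3 of Utx-KO ESC in 2.70%. The 722 in clone 2 alone had 13.3% and 6.37%, and the 1527 in both had 8.78% and 18.7%. The median widths of these groups were 1532, 1467 and 1691 bp and their median scores 102, 108 and 164. None of the 408 had H3K27me3 in any fibroblast list, while 67 of the 1527 had it in Utx-KO MEF with dox. By distance to a fibroblast peak, clone 1 marked 60.1% of late regions within 1000 bp of one and 55.7% of those over 50000 bp away. UTX was found at 14.9% and 10.2% of them, and H3K27me3 of Utx-KO ESC at 7.43% and 15.7%.

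Late regions were spread over the genome and partly grouped. They made up between 10.4% (chromosome 19) and 18.6% (chromosome 16) of the ESC regions of an autosome. On the X chromosome, which male cells carry once, there were 51, of which clone 1 marked 35.3% (interval 22.4 to 49.9) and clone 2 marked 74.5% (60.4 to 85.7). 1582 (58.7%) had no other late region within 50000 bp, and 35 groups held 4 or more, 172 regions in all. Grouping was not counted for other ESC regions, so it is not shown to be a trait of late regions. The groups with the most members had 8 regions each. That on chromosome 2 from 168745483 to 168836235 was marked at 7 of 8 regions in clone 1 and at all 8 in clone 2. That on chromosome 17 from 71114872 to 71274881 was marked at 4 in clone 1 and at all 8 in clone 2. A group of 7 on chromosome 4 from 146561613 to 146687809 was marked at 2 in clone 1 and 3 in clone 2.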

How the data were processed

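For each immunoprecipitated sample the authors deposited a list of peaks with position and a score per peak. Scores also reflect the depth of a list, so scores of different lists set side by side here are a description. Bowtie 0.12.5, MACS 1.4.1, CASAVA 1.8.2 and the build mm9 are listed, without settings, in the submitters' processing notes. The 8 whole-cell extracts were not analysed here. Groups came from the sample titles. A single mitochondrial peak was dropped. Positions are counted from 1. No mm9 genome or annotation was used here, so no gene was named and no sequence printed. The members and lists were chosen with earlier results of these data known. Named regions were, by score and then width and off chromosome 18, the first 10 of all, the first 5 with each of UTX in WT ESC, H3K27me3 in WT ESC, H3K27me3 in Utx-KO MEF with dox and H3K4me3 in neither clone, and the 5 widest. Regions at the edge of the rule, in groups, and with H3K27me3 in a clone were named outside this rule after their values were seen. No test was made, since each state had 1 library per mark, apart from the 2 iPS clones. The 10 alternatives, of which widened H3K27me3 peaks and a shortened UTX list were chosen after seeing the data, are in the closing section. The splits by UTX and H3K27me3 within score classes were also added then. The overlap code found all of 300 planted overlaps in 10 of 10 simulated lists and gave the counts of bedtools 2.31.1 for 18 of 18 lists. Tools were scipy 1.17.1, pandas 2.3.3, numpy 2.4.6, matplotlib 3.10.9 and Python 3.11.15.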

Additional observations from a re-analysis of the deposited data

Results flagged for a closer look

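The difference with dox in the share of late regions with H3K27me3 was above 0 in Utx-KO MEF and below 0 in WT MEF. In Utx-KO MEF it was 2.71% with dox and 2.08% without, a difference of 0.631 points, and in WT MEF it was 0.334% with dox and 1.60% without, a difference of -1.26 points. The intervals overlap in Utx-KO MEF, at 2.13 to 3.39 with dox and 1.57 to 2.69 without. With a score of at least 100 in every list, the share was 2.56% in Utx-KO MEF with and without dox, and in WT MEF 0% with dox and 2.56% without. Only 2.3% of the H3K27me3 peaks of WT MEF with dox scored that high, against 89.7% in WT MEF, so the cutoff left almost none to meet. In Utx-KO MEF 40.6% did with dox and 91.8% without. With widened H3K27me3 peaks the share of late regions was 3.45% with dox and 3.38% without in Utx-KO MEF, and 0.668% with dox and 3.08% without in WT MEF. The background over all 17018 regions was 9.16% with dox and 5.12% without in Utx-KO MEF, and 0.823% with dox and 5.11% without in WT MEF. The difference was not tested, since each state had 1 library. The H3K27me3 list of WT MEF with dox held 938 peaks, against 4335 in Utx-KO MEF with dox, 5708 in Utx-KO MEF and 4760 in WT MEF.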

How the results depend on the processing

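Over 168 values of 10 alternatives and the 2 single clones, 111 moved by less than their interval or spread, 57 moved more and 0 changed sign. Only differences of shares could change sign, since the other values cannot be negative. A single clone always lies within the SD of 2 clones, so those values could not count as moved. The number of late regions was judged by a fixed factor in place of an interval. With autosomes only there were 2644 late regions, and the other values stayed within their intervals or spread. No paired analysis was possible because no result comes from a test, and clone numbers only join the H3K4me3 and H3K27me3 libraries of a clone. Read depth and variation between cultures limit every share; the causes of the shifts below were not tested.

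With a score of at least 100 in every list, there were 1638 late regions of median width 1921 bp, median score 233 and median gap 19062 bp. Of them 6.04% had UTX in WT ESC, 0% UTX in WT MEF with dox, and H3K27me3 was at 10.4% in Utx-KO ESC, 1.16% in WT ESC, 2.56% in WT MEF and 0% in the same cells with dox. In WT MEF with dox only 0.452% of the UTX peaks and 2.3% of the H3K27me3 peaks reached that score. Late regions exceeded those marked in all 4 lists by 4.99 points and those gained in both genotypes by 4.96 points for UTX, with a difference of -29.3 points to the set gained in both genotypes for H3K27me3 in Utx-KO MEF with dox. Regions with UTX minus without gave -21.7 points in clone 1 and -15.6 in clone 2, and the UTX offset was 979 bp.

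With an overlap of 50% of the shorter peak, 8.46% had UTX, 10.8% H3K27me3 in Utx-KO ESC and 1.96% in WT ESC. The UTX differences were 4.09 points (all 4 lists) and 5.79 points (both genotypes), that for H3K27me3 in Utx-KO ESC -44.9 points, and UTX minus no UTX -5.56 points in clone 1 and -3.51 points in clone 2, with intervals that include 0. Without late regions that had a fibroblast peak within 2500 bp, the median gap was 19513 bp.

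With the 16157 top-scoring peaks of each of 6 H3K4me3 lists, there were 1712 late regions of median width 1883 bp, score 221 and gap 18899 bp. UTX was at 12.6%, H3K27me3 at 14.4% in Utx-KO ESC, 3.74% in WT ESC, 4.79% in Utx-KO MEF with dox, 3.15% in Utx-KO MEF and 3.39% in WT MEF. Neither clone marked 8.12%, and the UTX offset was 937 bp.

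With Utx-KO ESC peaks as members, median width was 1390 bp, score 166 and UTX offset 697 bp. With as many UTX peaks in WT ESC as in WT MEF with dox, 9.05% had UTX.

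With 938 peaks per H3K27me3 list, shares were 1.34% in Utx-KO ESC, 0.928% in WT ESC, 1.08% in Utx-KO MEF with dox, 0.668% in Utx-KO MEF and 0.631% in WT MEF, and the differences to regions gained in both genotypes -13.1 points in Utx-KO ESC and -19.4 in Utx-KO MEF with dox. With H3K27me3 peaks widened by 2500 bp, they were 16.5%, 3.86%, 3.45%, 3.38% and 3.08% in the same lists, 0.668% in WT MEF with dox and 0.130% as the mean of the clones.

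With each clone cut to as many peaks as in WT ESC, their mean H3K4me3 share was 52.0%, 37.1% were in neither, and UTX minus no UTX in clone 2 was -14.4 points. Single clones gave 58.1% to 83.5% for H3K4me3 and 0.0371% to 0.111% for H3K27me3.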
